A study of Rattus norvegicus with 23 samples.

Results

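The 10 genes described here sense bacterial lipopolysaccharide (LPS) or restrain the signal that follows. They are the receptor genes Tlr4, Ly96, Cd14 and Tlr2, the adaptor genes Myd88 and Ticam1, and the genes Irak3, Tnfaip3, Nfkbia and Nfkb2 of the NF-κB feedback. They were chosen by name for these roles, and 9 of the 10 were read from the 20301 genes of the deposited table, since Ticam1 was not analysed here. RNA was sequenced from cells bound by CD11b/c magnetic beads, taken as microglia, from Wistar rat pups of both sexes operated on at postnatal day 7.

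The Sham group (n = 6) had a neck incision under isoflurane and no listed injection. The LPS group (n = 5) received 0.1 mg/kg of Escherichia coli LPS O55:B5 intraperitoneally 4 h before the same sham surgery. The NaCl/HI group (n = 6) received 0.9% NaCl, then ligation of the left common carotid artery and 50 min of 8% oxygen, the hypoxia-ischemia (HI), and 5 h of normothermia. The LPS/HI group (n = 6) received LPS at the same dose and lead time before the same HI and normothermia. Cells were isolated 24 h after the operation, which is 28 h after LPS. A Sham or LPS sample held 1 entire brain, and an HI sample pooled the ipsilateral hemispheres of 2 pups, so HI cannot be told apart from tissue and pooling wherever an HI group is set against a group without HI. Injection itself is likewise part of the LPS difference from Sham. In bulk samples, fewer cells of a type and less RNA per cell cannot be told apart.

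TLR4 binds LPS together with its co-receptor MD-2, the product of Ly96, after CD14 has handed the LPS over, whereas TLR2 answers to bacterial lipoproteins. MyD88 links these receptors to the IRAK kinases, and the signal ends in the release of NF-κB from its inhibitor IκBα, the product of Nfkbia. NF-κB then switches on genes of its own inhibitors: IκBα holds it in the cytoplasm again, A20, the product of Tnfaip3, trims the ubiquitin chains of the signalling complex, and IRAK-M, the product of Irak3, blocks the kinase step. Nfkb2 encodes p100, which retains NF-κB dimers and is the precursor of the p52 subunit. In macrophages, such inhibitors are known for endotoxin tolerance, the muted answer to a second dose of LPS.

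The motif bound by NF-κB was looked up in the members' own promoters. The κB consensus was searched on both strands, as 3 G, a purine, any 2 bases, 2 pyrimidines and 2 C, in the 250 bases before the start of 1 RefSeq transcript per gene (build GRCr8, a later build than the one of the expression table). It occurred in 5 of the 8 members with a promoter entry (Tlr2, Irak3, Tnfaip3, Nfkbia and Nfkb2), beside 6.33% of all 33469 promoters. No match lay in this window of Tlr4, Cd14 or Myd88, and Ly96 had no entry. Of 29 other pathway genes taken up by the rule for named genes, 22 had a promoter entry, and 5 of these had a match (Bcl3, Tnip1, Il6, Socs3 and Lcn2). The following windows of 30 bases, 1 per gene, are shown for the feedback genes, for Tlr2 as a receptor gene with the motif, and for Bcl3 and Tnip1, whose values come later. Tnfaip3 and Tlr2 each had a further match elsewhere in the 250 bases, not printed here. Capitals mark the matched bases, overlapping matches are joined, and a match is a run of letters, not a site at which binding was measured.
Tnfaip3, chr1:15544021-15544050, minus strand: gactGGAAAGTCCCtcGGAAATCCCCctgt
Nfkbia, chr6:78597084-78597113, minus strand: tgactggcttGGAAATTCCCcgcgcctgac
Nfkb2, chr1:255108344-255108373, plus strand: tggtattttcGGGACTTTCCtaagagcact
Irak3, chr7:57598646-57598675, minus strand: aggtctcgcaGGGGCATCCCtggggagagg
Tlr2, chr2:171504743-171504772, minus strand: aggcccttgGGGGAATTCCCatacggagcc
Bcl3, chr1:88613574-88613603, minus strand: tcggcggcagGGGAAGTCCCgcagcccggc
Tnip1, chr10:39585027-39585056, minus strand: tccatcatgGGGGAATTCCCCtcctgcctc

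The values are the authors' log2 values (rlog), corrected by them for 3 surrogate variables, with no counts, so depth is unknown, and the members' levels are compared between groups and not between genes. Library medians lay between 7.75 and 7.82. Unless another test or setting, such as the exact Wilcoxon test or the omission of a library, is named, adjusted p values are from 1 limma fit of the 23 samples, and a gene was called at an adjusted p under 0.05 over all genes. The summed linear levels of 13 microglial markers lay between 221018 and 270320, and the log2 values of Siglech, one of the 13, averaged -1.1. The titles call the samples biological replicates. The removal of 3 variables narrowed the spread within groups, so p values can be too small. CD11b, the antigen of the beads, is also carried by neutrophils, monocytes and other macrophages.

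The co-receptor gene Cd14 and the kinase inhibitor gene Irak3 were higher in LPS and in LPS/HI than in Sham, and the receptor pair Tlr4 and Ly96 was not called in any comparison. In LPS against Sham, 2 of the 9 members were called, both higher, where 17.8% of all genes were called and 10.2% called higher. In LPS/HI against Sham the same symbols, Cd14 and Irak3, were called, where the share over all genes was 8.77%, with 5.3% higher. The shares of members called, 2 of 9, therefore stood near the background in the first comparison. At an unadjusted p under 0.05, 5 of 9 members passed in LPS against Sham, beside 32% of all genes. With a fold change above 2 added, 0 members passed limma in any pair of groups, beside 0.069% of all genes in LPS against Sham, 0.00493% in NaCl/HI against Sham, 0.0936% in LPS/HI against Sham, 0.0345% in LPS/HI against LPS, 0.0148% in LPS/HI against NaCl/HI and 0.0591% in LPS against NaCl/HI.

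**Figure D1:**
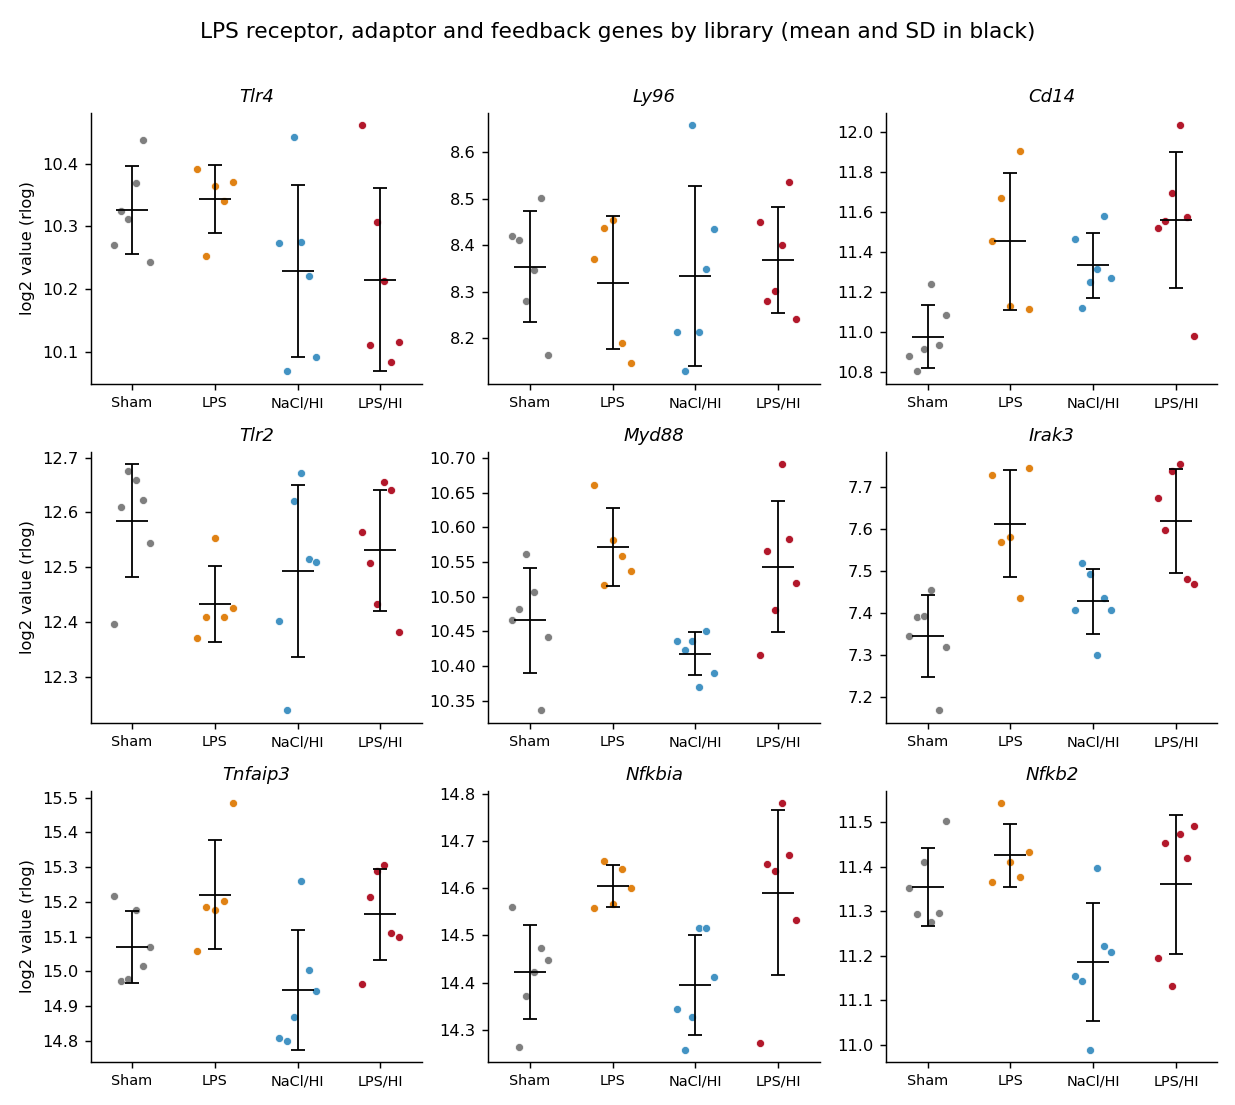
Log2 values (rlog, vertical axes, a separate range per gene) of the 9 members in the 6 Sham, 5 LPS, 6 NaCl/HI and 6 LPS/HI libraries, 1 point per library, with the group mean and SD in black. For Irak3 every LPS/HI point lies above the highest Sham point, and for Tlr4 and Ly96 all 4 groups overlap.

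Tlr4 encodes the signalling receptor for LPS. It ranged from 10.24 to 10.44 in Sham (median 10.32) and stood at 10.39, 10.25, 10.36, 10.34 and 10.37 in the LPS libraries. Values ran from 10.07 to 10.44 in NaCl/HI (median 10.25) and from 10.08 to 10.46 in LPS/HI (median 10.16). All 4 groups overlapped, with the HI groups reaching lower. Tlr4 differed by 0.02 on the log2 scale in LPS against Sham (95% confidence interval -0.13 to 0.16, adjusted p = 0.889) and by -0.01 in LPS/HI against NaCl/HI (-0.15 to 0.12, adjusted p = 0.961). Changes in Tlr4 of the size seen for Cd14 lie outside both intervals.

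Ly96, which encodes the LPS-binding MD-2, had group means of 8.35 ± 0.12 in Sham (SD, n = 6), 8.32 ± 0.14 in LPS (n = 5), 8.33 ± 0.19 in NaCl/HI (n = 6) and 8.37 ± 0.11 in LPS/HI (n = 6). The 5 LPS libraries stood at 8.37, 8.44, 8.45, 8.19 and 8.15, within the span of 8.13 to 8.66 seen in NaCl/HI. No pair of groups was called, and LPS against Sham gave -0.03 (-0.22 to 0.15, adjusted p = 0.829).

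Cd14, the surface protein that passes LPS to the TLR4 pair, moved furthest among the members. Its lowest, median and highest log2 values were 10.80, 10.93 and 11.24 in Sham, 11.12, 11.29 and 11.58 in NaCl/HI, and 10.98, 11.57 and 12.03 in LPS/HI. The LPS libraries stood at 11.45, 11.67, 11.13, 11.90 and 11.11. Of these, 3 of 5 lay above the highest Sham library, as did 5 of 6 in each HI group, and no pair with Sham was fully separated. Cd14 was higher by 0.48 in LPS against Sham (SE 0.15, adjusted p = 0.0332, a 1.39-fold change with an interval of 1.12 to 1.73). Against Sham, LPS/HI was higher by 0.58 (SE 0.14, adjusted p = 0.0184), or 1.498-fold (1.22 to 1.84). NaCl/HI lay 0.36 above Sham without a call (adjusted p = 0.268), and the exact Wilcoxon rank-sum test, adjusted over the 6 pairs of the gene, gave 0.026 there, beside 0.0346 for LPS and 0.026 for LPS/HI against Sham. In the order Sham, NaCl/HI, LPS, LPS/HI, limma called no neighbouring pair.

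The Cd14 call in LPS against Sham depended on single libraries, and that in LPS/HI did not. It was lost when Sham replicate 1, 2, 3 or 5 or LPS replicate 1, 2 or 4 was left out, with adjusted p up to 0.113, whereas the LPS/HI call held in all 23 leave-outs. Among the libraries numbered 1 to 12 and 13 to 23, the Cd14 difference of LPS from Sham was 0.55 and 0.42, and that of LPS/HI from Sham 0.72 and 0.44.

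For Tlr2, the lipoprotein receptor, Sham libraries ranged from 12.40 to 12.68 (median 12.62), and the LPS libraries stood at 12.37, 12.41, 12.55, 12.41 and 12.43. NaCl/HI ranged from 12.24 to 12.67 and LPS/HI from 12.38 to 12.66. All groups overlapped. LPS lay 0.15 below Sham on the log2 scale, with a 95% confidence interval of 0.30 to 0.00 below (adjusted p = 0.145), and no comparison of Tlr2 was called.

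Myd88, the adaptor shared by most Toll-like receptors, had its highest levels in the groups given LPS. It ranged from 10.34 to 10.56 in Sham (median 10.47), from 10.37 to 10.45 in NaCl/HI (median 10.43) and from 10.42 to 10.69 in LPS/HI (median 10.54). The LPS libraries stood at 10.66, 10.52, 10.58, 10.56 and 10.54, all above every NaCl/HI library. Myd88 was called in LPS against NaCl/HI, higher by 0.15 (SE 0.05, adjusted p = 0.0452), or 1.11-fold (1.04 to 1.19). In that comparison 2 of 9 members were called, Myd88 and Nfkb2, where 8.98% of all genes were called and 5.32% called higher. Myd88 and Nfkbia were the members whose LPS and NaCl/HI libraries did not overlap, as was the case for 7.31% of all genes. The call was near its threshold: it held in only 4 of 23 leave-outs, after removal of 1 of Sham 3, Sham 5, LPS/HI 1 and LPS/HI 4, and adjusted p reached 0.124 in the others. The exact Wilcoxon test over the 6 pairs of each gene called 3 members there, Myd88, Irak3 and Nfkbia, and not Nfkb2. That test was run for the named genes only, so its counts, here and below, have no share over all genes beside them.

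Irak3 encodes IRAK-M, an IRAK family member best known as an inhibitor in macrophages. Its lowest, median and highest log2 values were 7.17, 7.37 and 7.45 in Sham, 7.30, 7.42 and 7.52 in NaCl/HI, and 7.47, 7.64 and 7.75 in LPS/HI. The LPS libraries stood at 7.73, 7.57, 7.58, 7.44 and 7.75. LPS/HI was fully separated from Sham, as were 6.37% of all genes, and 4 of 5 LPS libraries lay above the highest Sham library. Irak3 was higher by 0.27 in LPS against Sham (SE 0.07, adjusted p = 0.0141, 1.204-fold) and by 0.27 in LPS/HI against Sham (SE 0.07, adjusted p = 0.0201, 1.21-fold). Both calls held in all 23 leave-outs, with adjusted p up to 0.0449 and 0.0499, but neither held when replicate numbers were added to the fit as a block. The exact Wilcoxon test over the 6 pairs of the gene gave adjusted p values of 0.026 and 0.013. The LPS and LPS/HI means were 7.61 ± 0.13 (n = 5) and 7.62 ± 0.12 (n = 6), a difference of 0.01 with an interval of -0.14 to 0.16. LPS/HI lay 0.19 above NaCl/HI without a limma call (adjusted p = 0.285), while the exact Wilcoxon test gave an adjusted p of 0.039.

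Tnfaip3 encodes A20, a ubiquitin-editing enzyme that shuts off the TLR4 and TNF receptor complexes. It ranged from 14.97 to 15.22 in Sham (median 15.04), from 14.80 to 15.26 in NaCl/HI (median 14.90) and from 14.96 to 15.31 in LPS/HI (median 15.16). The LPS libraries stood at 15.06, 15.18, 15.18, 15.20 and 15.48, so that 1 of 5 exceeded every Sham library. LPS gave 0.15 against Sham (-0.03 to 0.33, adjusted p = 0.255) and 0.27 against NaCl/HI (0.09 to 0.46, adjusted p = 0.056). The latter was called when LPS replicate 1, NaCl/HI replicate 4 or LPS/HI replicate 1 was left out.

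Nfkbia encodes IκBα, the inhibitor that NF-κB restores after each round of signalling. Sham libraries ranged from 14.26 to 14.56 (median 14.43) and NaCl/HI libraries from 14.26 to 14.52 (median 14.38). The LPS libraries stood close together at 14.56, 14.66, 14.57, 14.64 and 14.60, above every NaCl/HI library. In LPS/HI, values ran from 14.27 to 14.78 (median 14.64), and the lowest was replicate 1. Nfkbia gave 0.18 in LPS against Sham (0.03 to 0.34, adjusted p = 0.0947), 0.21 in LPS against NaCl/HI (0.05 to 0.36, adjusted p = 0.0839) and 0.17 in LPS/HI against Sham (0.02 to 0.32, adjusted p = 0.134). Leaving out LPS/HI replicate 1 turned all 3 into calls, with adjusted p values of 0.0388, 0.0314 and 0.018. By the exact Wilcoxon test over the 6 pairs of the gene, Nfkbia passed in LPS against Sham and in LPS against NaCl/HI, with an adjusted p of 0.026 in each.

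Nfkb2, the p100 precursor gene, was lowest in NaCl/HI. Its lowest, median and highest values were 11.277, 11.324 and 11.502 in Sham, 10.99, 11.18 and 11.40 in NaCl/HI, and 11.13, 11.44 and 11.49 in LPS/HI. The LPS libraries stood at 11.37, 11.54, 11.41, 11.38 and 11.43. Of the NaCl/HI libraries, 5 of 6 lay below the lowest Sham library. Nfkb2 was called in LPS against NaCl/HI, higher by 0.24 (SE 0.07, adjusted p = 0.0402), or 1.18-fold, and gave -0.17 in NaCl/HI against Sham (adjusted p = 0.268). The exact Wilcoxon test over the 6 pairs of the gene did not call it in LPS against NaCl/HI (adjusted p = 0.0779). The limma call was lost without any 1 of the 5 LPS libraries or without NaCl/HI replicate 1, 2, 3, 5 or 6, with adjusted p up to 0.12. Its difference was 0.34 among libraries 1 to 12 and 0.13 among libraries 13 to 23.

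None of the 9 members was called between a group with HI and its counterpart without HI. NaCl/HI against Sham gave 0 calls in limma, with 2 members at an unadjusted p under 0.05, Cd14 and Nfkb2, and 1 by the exact Wilcoxon test, Cd14. Over all genes, 0.00985% were called and 14.8% had an unadjusted p under 0.05. These were 2 genes, and 0 to 556 when 1 library was left out. For LPS/HI against LPS there were also 0 calls, with 0 members at an unadjusted p under 0.05 and 0 by the Wilcoxon test, where 1.94% of all genes were called and 15.5% were under it unadjusted. The interaction of LPS with HI, which asks whether the LPS difference depends on HI, gave 0 calls and 0 members at an unadjusted p under 0.05, beside 1.08% of all genes called and 15.1% under it unadjusted. The genes called for it numbered 220, and 32 to 493 when 1 library was left out, while those called in LPS/HI against LPS moved from 394 to between 81 and 462. The intervals of the interaction were wide, from -0.68 to 0.18 for Cd14 and from -0.28 to 0.13 for Irak3.

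Within the HI animals, where tissue and pooling were matched and both groups were injected, LPS/HI against NaCl/HI gave 0 member calls in limma, with 5 members at an unadjusted p under 0.05 and 1 by the Wilcoxon test, Irak3. Over all genes, 0.202% were called and 10.6% had an unadjusted p under 0.05. The called genes numbered 41, and 1 to 134 when 1 library was left out. The 5 members were Myd88 (0.12), Irak3 (0.19), Tnfaip3 (0.22), Nfkbia (0.20) and Nfkb2 (0.18), all higher in LPS/HI. The median member differed by 0.18, beside 0.00 over all genes. In LPS against Sham the median member differed by 0.10, beside -0.01 over all genes.

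As no member's interaction was called, the mean of LPS against Sham and of LPS/HI against NaCl/HI was also fitted, a contrast chosen after the data had been seen. Each of its parts compares samples of 1 tissue type. It called 5 of the 9 members, all higher, where 16.3% of all genes were called and 9.49% called higher, and 6 of 9 had an unadjusted p under 0.05, beside 30.6%. They were Cd14 (0.35, SE 0.10, adjusted p = 0.0246), Irak3 (0.23, SE 0.05, adjusted p = 0.00347), Nfkbia (0.19, SE 0.05, adjusted p = 0.0155), Tnfaip3 (0.18, SE 0.06, adjusted p = 0.0446) and Myd88 (0.11, SE 0.03, adjusted p = 0.0193). As folds these were 1.28, 1.17, 1.14, 1.14 and 1.08. Nfkb2 gave 0.12 without a call (adjusted p = 0.0975), and Tlr4, Ly96 and Tlr2 gave 0.00, 0.00 and -0.06. The Irak3, Nfkbia and Myd88 calls held in all 23 leave-outs. That of Cd14 was lost without LPS replicate 2 or 4, with adjusted p up to 0.0536. That of Tnfaip3 held only after removal of 1 of Sham 1, Sham 4, LPS 1, NaCl/HI 4, NaCl/HI 5 and LPS/HI 1, with adjusted p up to 0.0816 otherwise. The matching mean of both HI differences called 0 of 9 members in limma, with 3 at an unadjusted p under 0.05 (Tlr4, Cd14 and Nfkb2), beside 0.906% and 15% of all genes.

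**Figure D2:**
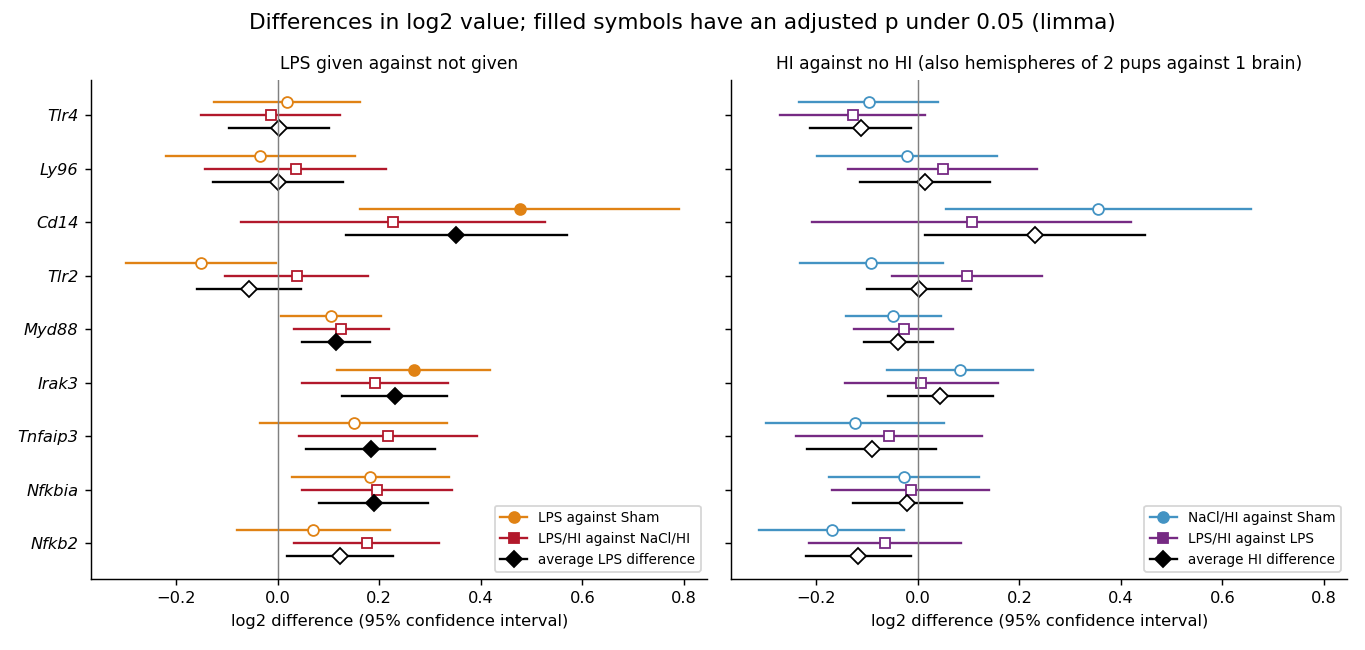
Log2 differences of the 9 members (horizontal axes, with 95% confidence intervals), left for LPS given against not given and right for HI against no HI, where HI comes with other tissue and pooling. Symbols are filled at an adjusted p under 0.05; 5 of the black diamonds, the mean LPS difference, are filled on the left and none on the right.

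The genes around the members were taken from 5 lists of the same pathway. Among 15 other receptor genes, 4 were higher in LPS than in Sham and none lower, where 10.2% of all genes were called higher. Tlr1, the partner of TLR2 for lipoproteins, rose by 0.95 (SE 0.10, adjusted p = 1.25e-06), or 1.93-fold. Ly86, which encodes MD-1, a relative of MD-2 and partner of the receptor CD180, rose by 0.47 (SE 0.05, adjusted p = 3.23e-06), whereas Cd180 itself gave -0.19 (adjusted p = 0.265). Tlr8, an endosomal RNA sensor, rose by 0.43, a call lost without LPS replicate 5 (adjusted p = 0.054), and Unc93b1, which carries endosomal receptors to their compartment, rose by 0.16. The median of the list was 0.07, beside -0.01 over all genes.

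Tlr1 and Ly86 were the genes of the 5 lists whose interaction of LPS with HI was called, with a smaller LPS difference in the HI groups. Tlr1 stood at 9.76, 9.70, 9.49, 10.01 and 9.53 in the LPS libraries, against 8.66 to 8.88 in Sham, 8.74 to 9.27 in NaCl/HI and 9.13 to 9.54 in LPS/HI. Ly86 ran from 10.87 to 11.25 in LPS, above each of the other 3 groups, which reached 10.66, 10.72 and 10.85. The interaction was -0.57 for Tlr1 (SE 0.13, adjusted p = 0.0409) and -0.40 for Ly86 (SE 0.07, adjusted p = 0.0157). That of Ly86 was called in all 23 leave-outs. That of Tlr1 was called only after removal of 1 of Sham 3, Sham 5, LPS 3, LPS 5, NaCl/HI 3, NaCl/HI 4 and LPS/HI 3, with adjusted p up to 0.091 otherwise. With a replicate block in the fit, neither interaction was called (adjusted p = 0.105 for Ly86 and 0.110 for Tlr1). Over all genes, the interactions called then fell from 220 to 2. Tissue and pooling differ between the parts of this contrast as HI does.

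Of 19 genes for adaptors and kinases, 1 was called in LPS against Sham, where 17.8% of all genes were. Ripk1, a kinase of the TNF and TRIF branches, was lower by 0.14 on the log2 scale, a call lost without LPS replicate 2 or 4 (adjusted p up to 0.0612), and none was higher. In LPS against NaCl/HI, 1 of 19 was higher, the TRIF-branch kinase gene Tbk1 (0.15, adjusted p = 0.0131), beside 5.32% of all genes. Of 8 genes for NF-κB subunits, the NF-κB-inducing kinase and interferon regulatory factors, Nfkb1, which encodes the p105 precursor of p50, was higher in LPS by 0.14 against Sham (adjusted p = 0.0297) and by 0.20 against NaCl/HI (adjusted p = 0.0048). The former call was lost without Sham replicate 1 or 4 or LPS replicate 1, 2, 4 or 5, with adjusted p up to 0.0714. Irf7, an interferon-response factor, averaged 7.10 in Sham, 7.498 in LPS, 7.68 in NaCl/HI and 7.64 in LPS/HI. It was called higher than Sham in LPS, by 0.40, and in LPS/HI, by 0.54. The LPS call was lost without any 1 of the Sham replicates but 4 or of the LPS replicates but 5, with adjusted p up to 0.119. NaCl/HI lay 0.58 above Sham, the largest of the 3 differences, without a limma call (adjusted p = 0.0837), and 5 of its 6 libraries exceeded every Sham library. The exact Wilcoxon test over the 6 pairs of the gene gave adjusted p values of 0.013 for NaCl/HI, 0.013 for LPS/HI and 0.104 for LPS against Sham.

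Among 36 other negative regulators, 5 were higher in LPS than in Sham and none lower, a share near the 10.2% of all genes called higher, with a list median of 0.06, beside -0.01 over all genes. Bcl3, an atypical IκB protein that binds p50 on DNA, stood at 8.67, 8.89, 8.71, 8.67 and 8.61 in LPS and between 8.35 and 9.05 in LPS/HI. Sham spanned 7.79 to 8.15 and NaCl/HI 7.98 to 8.26, so both groups given LPS were separated from both groups not given it. LPS/HI and NaCl/HI were separated for 1.33% of all genes. Bcl3 was higher by 0.73 in LPS against Sham (adjusted p = 3.47e-05), by 0.62 in LPS/HI against Sham (adjusted p = 0.00155) and by 0.48 in LPS/HI against NaCl/HI (adjusted p = 0.0445).

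Tnip1, whose product ABIN1 is a partner of A20, showed the same separation, at 10.51, 10.53, 10.41, 10.40 and 10.34 in LPS and 10.38 to 10.54 in LPS/HI, against 10.09 to 10.29 in Sham and 10.17 to 10.27 in NaCl/HI. It rose by 0.25 in LPS against Sham (adjusted p = 0.000555), by 0.28 in LPS/HI against Sham (adjusted p = 0.00169) and by 0.24 in LPS/HI against NaCl/HI (adjusted p = 0.0328). Birc3, which encodes the ubiquitin ligase cIAP2, rose by 0.48, 0.50 and 0.42 in these comparisons. Bcl3, Tnip1 and Birc3 were the negative regulators called among the 36 in LPS/HI against NaCl/HI, where 0.202% of all genes were called. There, the Bcl3 call held only after removal of 1 of Sham 5, LPS 4, LPS 5, LPS/HI 1 and LPS/HI 3, and the Birc3 call only after that of Sham 5, LPS 4, NaCl/HI 4, LPS/HI 1 or LPS/HI 3, with adjusted p up to 0.124 and 0.125. The Tnip1 call was lost without any 1 NaCl/HI library or without LPS/HI replicate 2, 4 or 5, with adjusted p up to 0.103. Against Sham, the calls of these 3 genes held in all 23 leave-outs.

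Ptpn6, which encodes the phosphatase SHP-1, and Trafd1, a brake on TRAF signalling, were the remaining 2 in LPS against Sham, each higher by 0.18. Comparing LPS/HI with Sham, 5 of the 36 were higher and 1 lower, where 8.77% of all genes were called and 5.3% called higher. Beside the 3 above, Socs3, a cytokine-signalling inhibitor, was higher by 0.48 and the ubiquitin ligase gene Rnf125 by 0.40, while Nfkbid, another atypical IκB gene, was lower, at -0.29, a call lost without Sham replicate 5 or 6 or LPS/HI replicate 5 (adjusted p up to 0.0604). The Socs3 call (adjusted p = 0.0447) was lost in 15 of 23 leave-outs, with libraries of all 4 groups among them and adjusted p up to 0.104.

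**Figure D3:**
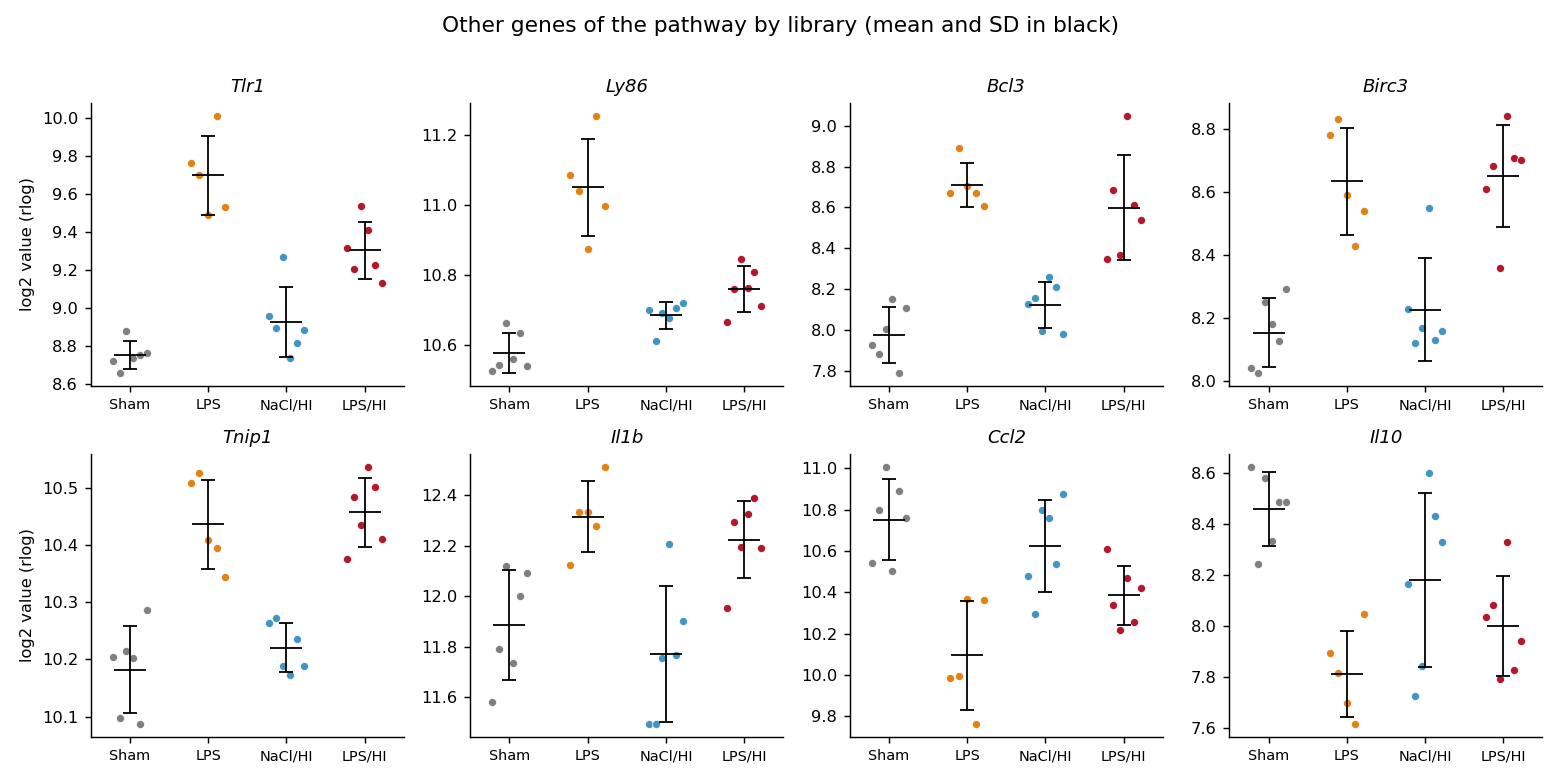
Log2 values (rlog, vertical axes, a separate range per gene) of 8 genes of the pathway lists in the 23 libraries, with the group mean and SD in black. For Bcl3 and Tnip1 every LPS and LPS/HI point lies above every Sham and NaCl/HI point, while Ly86 is highest in the 5 LPS libraries.

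Of 28 genes for inflammatory products of the pathway, 3 were higher and 3 lower in LPS than in Sham, where 17.8% of all genes were called. Il1b, the cytokine gene, stood at 12.12, 12.33, 12.33, 12.28 and 12.51 in LPS against 11.58 to 12.12 in Sham, and rose by 0.43 (SE 0.12, adjusted p = 0.0162). Tnfsf9, a co-stimulatory ligand gene, also rose by 0.43, a call lost without Sham replicate 1 or LPS replicate 2 or 4, with adjusted p up to 0.0626, and Il12b was the other gene that was higher. The chemokine gene Ccl2 fell by 0.66 (SE 0.12, adjusted p = 0.00076), Il10, which encodes an anti-inflammatory cytokine, fell by 0.65 (SE 0.13, adjusted p = 0.00214) and Il6 fell by 0.30 (SE 0.08, adjusted p = 0.00992). Every LPS library lay below every Sham library for Ccl2, Il10 and Il6, a separation in either direction seen for 13.9% of all genes. Tnf, the classical early product, gave -0.11 (-0.26 to 0.05, adjusted p = 0.359).

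The mean LPS difference over both arms, added after the data had been seen, called 7 of these 28 genes higher and 3 lower, where 16.3% of all genes were called and 9.49% called higher. Il1b, Tnfsf9 and Lcn2 were among the 7, and Ccl2, Il10 and Il6 were the 3. The Tnfsf9 call was lost in 13 leave-outs, with adjusted p up to 0.0806. That of Il6 was lost in 16 leave-outs, with adjusted p up to 0.0891. Those of Il1b, Lcn2, Ccl2 and Il10 held in every leave-out. The mean LPS difference also called higher 9 of the 36 negative regulators and 2 of the 15 receptor genes (Tlr1 and Ly86). It called higher 1 of the 19 adaptors and kinases (Tbk1) and 1 of the 8 genes of the NF-κB list (Nfkb1). None of these 4 lists had a gene called lower. The Tbk1 call was lost in 14 leave-outs, with adjusted p up to 0.0685.

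In LPS/HI against Sham, 2 of the 28 were called, beside 8.77% of all genes. One was higher, the adhesion receptor gene Cd44 (0.84, adjusted p = 0.0442, up to 0.107 in 12 of 23 leave-outs), and the other lower, Il10 (-0.46, adjusted p = 0.0305). Cd44 averaged 9.21 in Sham, 9.45 in LPS, 10.19 in NaCl/HI and 10.05 in LPS/HI, and its difference of NaCl/HI from Sham was larger still, at 0.98, without a call (adjusted p = 0.134). The Il10 call was lost without any 1 of Sham 1, 3, 5 and 6 and LPS/HI 2, 3, 5 and 6, with adjusted p up to 0.0773. Between the HI groups, Lcn2, an iron-binding protein gene also listed as a neutrophil marker, was higher in LPS/HI (1.06, adjusted p = 0.046, up to 0.124 in the 19 of 23 leave-outs that lost the call). Lcn2 averaged 7.71 in Sham, 7.77 in LPS, 7.11 in NaCl/HI and 8.16 in LPS/HI, so that NaCl/HI lay 0.60 below Sham on the log2 scale (adjusted p = 0.220) and LPS/HI 0.45 above it (adjusted p = 0.183), neither of them called by limma. By the exact Wilcoxon test over the 6 pairs of the gene these had adjusted p values of 0.0346 and 0.269. Against LPS alone, Acod1, which encodes the itaconate-producing enzyme of activated macrophages, was higher in LPS/HI (1.41, adjusted p = 0.0431, up to 0.114 in the 13 of 23 that lost the call). Acod1 averaged 4.38 in Sham, 3.91 in LPS, 5.20 in NaCl/HI and 5.32 in LPS/HI, so that both HI groups stood higher, and it was also called lower in LPS than in NaCl/HI (-1.30, adjusted p = 0.025, up to 0.0808 in the 5 of 23 leave-outs that lost the call). It gave 0.12 in LPS/HI against NaCl/HI (adjusted p = 0.932). The leave-outs that ended the Cd44, Lcn2 and Acod1 calls with LPS/HI included libraries of all 4 groups. In NaCl/HI against Sham, limma called 0 genes of all 5 lists. The mean of both HI differences called Cd44, Acod1 and the negative regulator gene Lgals3 higher among the named genes, beside 0.906% of all genes. These calls were lost in 18, 10 and 17 of 23 leave-outs, with adjusted p up to 0.103, 0.0695 and 0.0934. Lgals3 was also called lower in LPS than in NaCl/HI (-0.89, adjusted p = 0.0467), a call lost in 18 of 23.

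**Figure D4:**
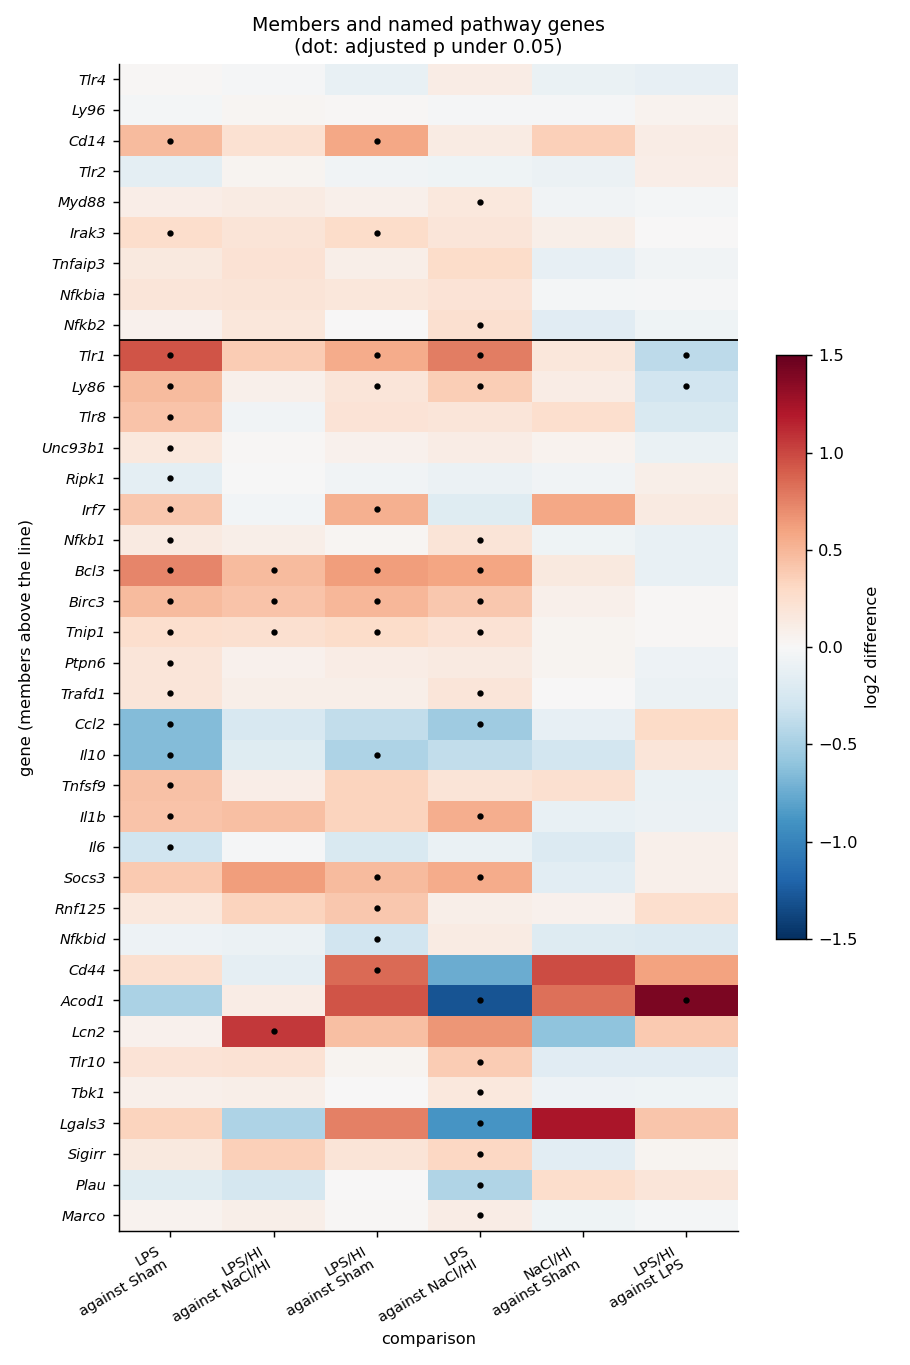
Log2 differences (colour) of the 9 members and of the named pathway genes (rows) in the 6 comparisons of groups (columns), with a dot at an adjusted p under 0.05. Bcl3, Birc3 and Tnip1 have dots in the 4 comparisons of a group given LPS with one not given it, and no gene has a dot in NaCl/HI against Sham.

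Some neutrophil markers were also higher in LPS/HI. The summed linear level of 14 neutrophil markers ranged from 4833 to 6224 in Sham, 5819 to 6676 in LPS, 5248 to 7670 in NaCl/HI and 5957 to 12223 in LPS/HI. Csf3r, the receptor gene for granulocyte colony-stimulating factor, alone made up 31.9% to 69.6% of the sum in a library. The other 13 markers summed to 1791 to 2978 in Sham, 1880 to 2857 in LPS, 1598 to 3869 in NaCl/HI and 2565 to 8327 in LPS/HI. In LPS/HI against Sham, 5 of the 14 were called higher (S100a8, S100a9, Mmp8, Mmp9 and Retnlg), beside 5.3% of all genes, and in LPS against Sham 1 was higher (Csf3r) and 2 lower (Camp and Ngp), beside 17.8% of all genes called in either direction. The log2 values of the granule protein genes Elane and Mpo averaged 0.3 and 2.6 over all libraries. LPS/HI replicate 4 had the highest marker sum and, of all 23 libraries, the highest Cd14 (12.03) and Irak3 (7.75) values. LPS/HI replicates 6 and 5 had nearly equal marker sums, the lowest of their group at 5957 and 6018, with Cd14 at 10.98 and 11.58 and Irak3 at 7.47 and 7.48. Among the LPS libraries, replicate 1 had the highest sum (6676) and Cd14 at 11.45, whereas replicate 2, at 5855, and replicate 4, at 6181, had higher Cd14 values of 11.67 and 11.90. Csf3r alone made up 57.2% to 69.6% of the sum in the LPS libraries, so there the sum is mostly 1 gene. Without LPS/HI replicate 4, LPS/HI against Sham gave 0.49 for Cd14 (adjusted p = 0.0451) and 0.25 for Irak3 (adjusted p = 0.0492). The part of these markers in the results was not tested.

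**Figure D5:**
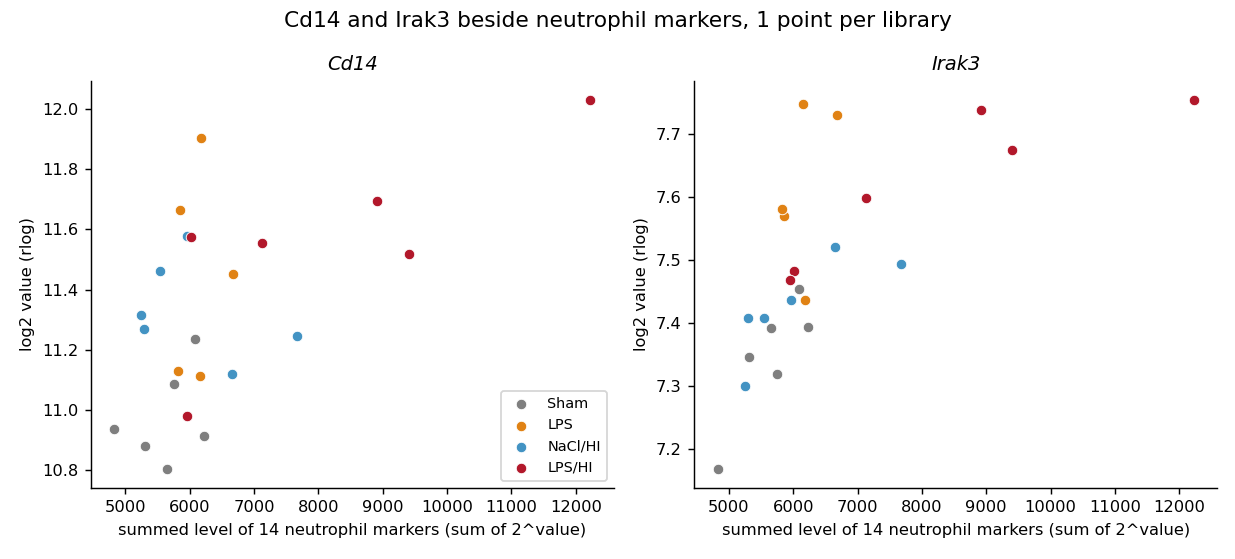
Log2 values (rlog, vertical axes) of Cd14 and Irak3 beside the summed linear level of 14 neutrophil markers (horizontal axes), 1 point per library, coloured by group. Csf3r alone made up 31.9% to 69.6% of a sum. The LPS points overlap the Sham points on the horizontal axis, between 5819 and 6224, and 3 LPS/HI points lie beyond every other library.

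Markers of other cell types were summed in the same way. Of 13 microglial markers, 6 were lower in LPS than in Sham, where 17.8% of all genes were called in either direction, with summed levels of 221618 to 239394 against 237311 to 270320. Summed monocyte markers (10 genes) ranged from 16080 to 20804 in Sham, 16421 to 18727 in LPS, 17601 to 31107 in NaCl/HI and 16328 to 22469 in LPS/HI, of which Fn1 alone made up 29.8% to 68.3%, and those of border-associated macrophages (9 genes) from 38710 to 65808, 31227 to 43158, 34340 to 53901 and 36200 to 43870. Endothelial markers (11 genes) summed to 33457 to 38672, 30484 to 36207, 32726 to 36618 and 35397 to 43793, and in LPS against Sham 1 of the 11 was called higher and 4 lower. Oligodendrocyte lineage markers (8 genes) summed to 6033 to 9994, 6429 to 8072, 6544 to 18374 and 7094 to 9367, and the highest sum, in NaCl/HI replicate 6, stood apart from the other libraries. Astrocyte markers (8 genes) lay between 15167 and 27176 and neuron markers (7 genes) between 873 and 1162 over all libraries. Their part in the members' differences was not tested.

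Within the 23 libraries, the members that resembled each other most were Tnfaip3 and Nfkbia, with Pearson's r of 0.784 across libraries and 0.685 after group means were removed. Over all genes, Nfkbia was most like C1qa (r = 0.891), Nt5c and C1qb, and Irak3 most like Xdh (0.892), Flot2 and Mxd1. Nfkb2 was most like Irgq (0.926) and Mepce, followed by Nfkbie, the gene of another IκB (0.879), and Tnfaip3 most like Zfp263 (0.872), Ifngr1 and Gpbp1l1. Cd14 was most like Batf (0.841), Glycam1 and Myh3, and Myd88 most like Traf7 (0.848) and Tcta. The closest genes were Mob1a (0.842) for Tlr4, Uba3 (0.913) for Ly96 and Nmd3 (0.882) for Tlr2. These correlations describe n = 23 libraries that share their groups and the authors' correction.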

How the data were processed

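RNA-seq values of CD11b/c-isolated microglia were read from the table deposited by the authors (Sham n = 6, LPS n = 5, NaCl/HI n = 6, LPS/HI n = 6, grouped by title). Per the study's methods, the authors quantified reads with kallisto 0.48.0 on mRatBN7.2, built the count matrix in DESeq2 through tximport, dropped genes with fewer than 10 counts and summed protein-coding genes of 1 symbol. The deposited table holds log2 values that the authors obtained with rlog, which shrinks weakly expressed genes, after which 3 surrogate variables were removed with limma and sva. Counts were not used here, so depth per sample and its error are unknown.

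R 4.3.3 with limma 3.58.1 fitted 4 group means to all 23 samples with a variance trend. Within-group residuals spanned 16 dimensions, so 16 residual degrees of freedom were used in place of 19. The 6 pairs and the interaction were tested with Benjamini-Hochberg adjustment over all genes and no filter. Confidence intervals are at 95%. The fit was tested on simulated data for LPS against Sham (20301 genes, 200 changed): 98.5% were recovered and between 2.48% and 7.94% of the calls were false. Each planted change was 4 within-group SD, larger than the members' differences, so the recovered share does not hold for them. The noise was independent between genes and libraries, so the false share does not cover structure that real libraries share. Python 3.11.15 with pandas 2.3.3, scipy 1.17.1 and matplotlib 3.10.9 made the summaries and plots.

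The members and lists were chosen with earlier results of these data known. Pathway genes named are, per list and comparison, up to 5 called genes of the largest difference; Il12b, Cd180, Tnf and the genes at the ends of marker lists were named after their values were seen. Alternatives were the groups compared alone (degrees of freedom not lowered), a replicate block, a block of library numbers 1 to 12 against 13 to 23, degrees of freedom not lowered, no trend, median centring, omission of the lowest 25% of genes, quantile normalization, the exact Wilcoxon test, a fold threshold of 2 and each library left out. Some likeness values are not reported here.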

Additional observations from a re-analysis of the deposited data

Results flagged for a closer look

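None of the 36 combinations of member and group held a library apart from the others by Dixon's test. Of 152 combinations of named gene and group, 8 did, where chance gives about 1 in 20. They were Tlr8 (9.57), Nfkbid (12.1) and Marco (0.244) in LPS replicate 5, Ptpn6 (13.2), Tnfsf9 (8.18) and Rnf125 (5.26) in Sham replicate 1, and Birc3 (8.55) and Tlr10 (6.45) in NaCl/HI replicate 4, all log2 values. The Marco value is close to the floor of the table. The interaction of LPS with HI was called for Tlr1 (-0.57, adjusted p = 0.0409 by limma) and Ly86 (-0.40, adjusted p = 0.0157 by limma), so that the LPS difference was smaller with HI for both.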

How the results depend on the processing

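No member or named gene that was called changed sign under an alternative. Counts of members called moved from 2 in LPS against Sham to 4 with only the groups compared, while all genes called there went from 3606 to 5170. Member counts moved from 0 to 1 by the exact Wilcoxon test, which was not run over all genes, in NaCl/HI against Sham and in LPS/HI against NaCl/HI, and to 3 in LPS against Sham and LPS against NaCl/HI. In LPS against NaCl/HI they moved from 2 to 4 without lowered degrees of freedom, 1 without the variance trend and 0 after quantile normalization, which also moved the mean LPS difference from 5 to 3. All genes called there went from 1824 to 2708, 1823 and 1753, and for the mean LPS difference from 3301 to 3148. With a fold above 2, the member counts were 0. Leaving out 1 library gave 1 to 3 members in LPS against Sham, 2 to 3 in LPS/HI against Sham, 0 to 4 in LPS against NaCl/HI, 3 to 6 for the mean LPS difference and 0 elsewhere. In the same order, all genes called ranged from 2395 to 3954, 769 to 2544, 1076 to 2007 and 2548 to 3983. Tnfaip3 lost its mean LPS call under median centring (adjusted p = 0.0551) and quantile normalization (adjusted p = 0.23).

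Same-numbered samples did not deviate together in every pair of groups (r from -0.475 to 0.470). An LPS library was most like the NaCl/HI library of its own number in 4 of 5 cases. In the other pairs of groups this held for 0 to 2 libraries. Since 3 surrogate variables had already been removed, these values cannot exclude a litter or batch shared by same-numbered samples. With a replicate block, 1 member was called in each of LPS against Sham, LPS/HI against Sham and LPS against NaCl/HI, and 3 for the mean LPS difference. Irak3 was then not called in LPS against Sham (adjusted p = 0.0508) or LPS/HI against Sham (0.0527), Myd88 not in LPS against NaCl/HI (0.128) and Myd88 and Tnfaip3 not for the mean LPS difference (0.0623 and 0.0633), nor were the interactions of Tlr1 (0.110) and Ly86 (0.105). That of Tlr1 was also not called without the variance trend (0.0564). All genes called in LPS against Sham went from 3606 to 2282, in LPS/HI against Sham from 1781 to 751, in LPS against NaCl/HI from 1824 to 1083, and for the interaction from 220 to 2. In LPS/HI against NaCl/HI they went from 41 to 8, in LPS/HI against LPS from 394 to 89, and for the mean LPS difference from 3301 to 2226. Of the called differences of named pathway genes, 21 lost the call with the block and 54 kept it. Without lowered degrees of freedom, LPS/HI against Sham had 3094 and the interaction 666. Median centring changed the split of LPS against Sham from 2072 higher and 1534 lower to 2406 and 1128, of LPS/HI against Sham from 1075 and 706 to 849 and 881, and of LPS against NaCl/HI from 1081 and 743 to 1322 and 606. The cause of these changes was not tested. Without counts, the depth behind weakly expressed genes such as Marco cannot be judged.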
